A study of Xenopus tropicalis with 18 samples.

Results

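Foxi2 knockdown at late blastula was read from 6 of the 18 RNA-seq libraries of the study. These are the libraries that the titles assign to *Xenopus tropicalis* embryos carrying a *foxi2* morpholino (MO) and to their own controls at Nieuwkoop-Faber stage 9, with 3 libraries each. Every sample was a whole embryo of wild-type *X. tropicalis*, from which poly(A) RNA was sequenced. The MO is an antisense oligonucleotide that blocks translation of *foxi2* mRNA, and it was delivered at the 1-cell stage on the animal side, from which the ectoderm forms. The series text calls the controls wild-type embryos, while the labels give every library the treatment word morpholino, so it is not settled whether the controls were injected with anything. Late blastula was compared further with Foxi2 morphants and controls at early gastrula (stage 10.5) and with Sox3 morphants and controls at late blastula. Each of those comparisons had 2 libraries a group, and none of their libraries is shared with the 6.

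Foxi2 is a forkhead transcription factor that the egg supplies as mRNA on its animal side. Forkhead factors of the Foxi class act in vertebrate non-neural ectoderm, upstream of epidermis, placodes and ionocytes, the ion-transporting cells of the skin. Late blastula lies shortly after the embryonic genome is switched on, when maternal transcripts still make up much of the RNA and the regulators of ectoderm, mesoderm and endoderm are first transcribed. In whole embryos fewer cells of a type and less RNA per cell cannot be told apart.

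The libraries held 12740557 to 17389925 expected counts each, and 12802 genes had enough counts to be tested. A morphant library resembled the control of its own replicate number, whereas the replicate numbers differed widely in how far development had gone. To measure this, 725 genes were chosen whose level in the Sox3 controls, which are other embryos, was 4-fold or more above late blastula by early gastrula. The 477 of them that were tested had a median log2 CPM (counts scaled to a common library size, on a log2 scale) of -1.03, 1.87 and 3.83 in Foxi2 morphants of replicates 1, 2 and 3, against -1.25, 1.39 and 3.81 in controls. Replicate 1 had thus hardly begun to transcribe these genes and replicate 3 had them in quantity. Within pairs the medians of the morphant minus control difference were 0, 0.50 and -0.02. The 253 tested genes that fell at least 4-fold over the same interval had medians of 5.76, 4.87 and 3.54 in morphants and 5.87, 5.19 and 3.51 in controls, with pair differences of 0.0008, -0.32 and 0.09. In pair 2 the morphant library therefore lay further along this axis than its control, and the part of this offset in the results for pair 2 was not tested.

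**Figure D1:**
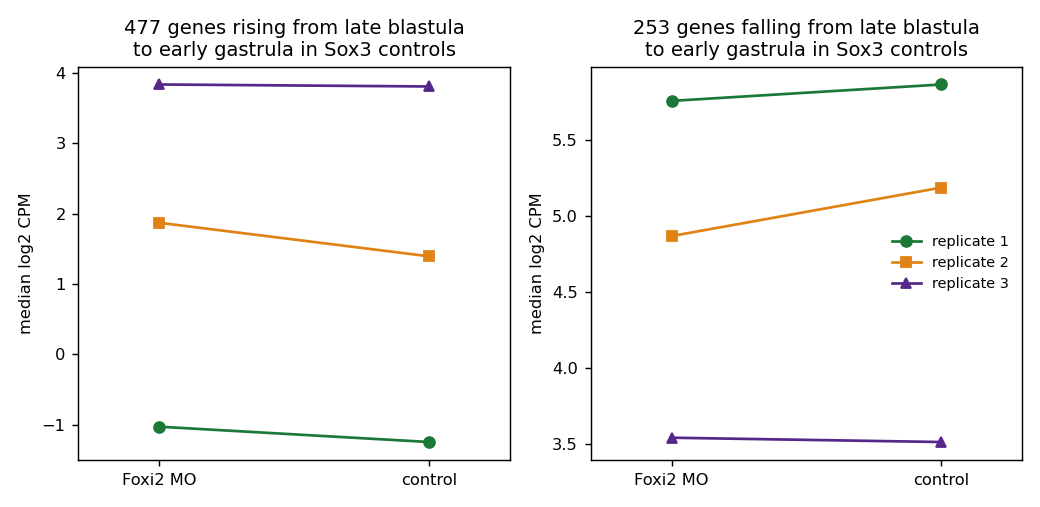
Median log2 CPM in each library of genes that rise (left) or fall (right) at least 4-fold from late blastula to early gastrula in Sox3 controls, lines joining the Foxi2 MO and control libraries of a replicate number. The rising genes sit at -1.03 and -1.25 in replicate 1 and at 3.83 and 3.81 in replicate 3, a wider gap than any within a pair.

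Because of these differences each morphant was set against the control of its own number. Values in the text are CPM after TMM scaling, listed for replicates 1, 2 and 3 in that order, and a log2 fold change is morphant over control with its standard error (SE). Adjusted p-values come from edgeR's quasi-likelihood test with the replicate number as a block and Benjamini-Hochberg adjustment over all 12802 genes, and rest on 3 pairs. Nothing in the labels says that the pairs are separate clutches, so these p-values hold for the 3 pairs and not for clutches. The test weights a pair by its counts and shares its estimate of spread across genes. An SE can thus be small where the 3 pair differences lie far apart. For *c3ar1* these were 1.25, 4.37 and 3.76, with an SE of 0.16. A gene all but absent in replicate 1 rests in effect on pairs 2 and 3. A gene was called when its adjusted p was under 0.05 and it changed at least 2-fold. Without the pairing edgeR called 0 genes, since the replicate numbers then count as spread. At an unadjusted p under 0.05 it had 86 lower and 59 higher, fewer than chance alone would give among 12802 genes.

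The transcript of the targeted gene was not lost. *foxi2* (chromosome 7, 24018956 to 24022142 in the UCB_Xtro_10.0 assembly) had 391, 382 and 371 CPM in Foxi2 morphants, against 360, 331 and 218 CPM in controls. All morphant libraries were above all control libraries, by little in replicates 1 and 2 and by more in replicate 3. The log2 fold change of 0.36 (SE 0.12, adjusted p = 0.212) did not pass the test. Since the MO acts on translation, the transcript does not measure how far the protein was depleted. By Western blot the study reports that Foxi2 protein was substantially reduced in morphants at late blastula and early gastrula. Whether these were embryos of the same batches as the libraries is not stated.

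The 2 other tested members of the family went different ways. *foxi1* (chromosome 3, 32477798 to 32480125), a regulator of ionocytes, had 1.32, 1.27 and 3.2 CPM in Foxi2 morphants, against 4.99, 5.73 and 9.35 CPM in controls. It was lower in every pair and the groups did not overlap, with a log2 fold change of -1.84 (SE 0.21, adjusted p = 0.00977). The call was lost without replicate 2, where the adjusted p was 0.0796. *foxi4.2* had 9.45, 135 and 251 CPM in Foxi2 morphants, against 6.21, 121 and 146 CPM in controls. It was above its control in every pair, but its log2 fold change of 0.50 (SE 0.13, adjusted p = 0.116) missed the threshold. *foxi4.1* had 0, 0 and 16 counts in Foxi2 morphants, against 0, 0 and 9 counts in controls, too few to be tested. *foxi4.1* and *foxi4.2* are neighbouring copies, between which reads may have been split.

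Across all genes 57 were called lower in Foxi2 morphants (0.445% of those tested) and 35 were called higher (0.273%). Of the 57 lower genes, 56 were lower in all 3 pairs, LOC116406439 being at 0 in pair 1, and 27 fell at least 2-fold in each pair. Their median change was -1.11, -1.42 and -1.33 on the log2 scale in pairs 1, 2 and 3. Of the 35 higher genes, 29 were above control in all 3 pairs and 5 rose at least 2-fold in each. Their median change was 0.54, 2.15 and 1.69, so the rise was carried by pairs 2 and 3, and 25 of the 35 were under 1 CPM in the control of replicate 1. Without replicate 2, 24 of the 57 lower genes and 7 of the 35 higher genes were still called. Without replicate 3, 33 and 10 were still called, and without replicate 1, 53 and 33. The totals were 72 lower and 127 higher without replicate 1, 26 and 10 without replicate 2, and 39 and 13 without replicate 3. DESeq2 with the same block called 47 of the 57 and 20 of the 35.

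**Figure D2:**
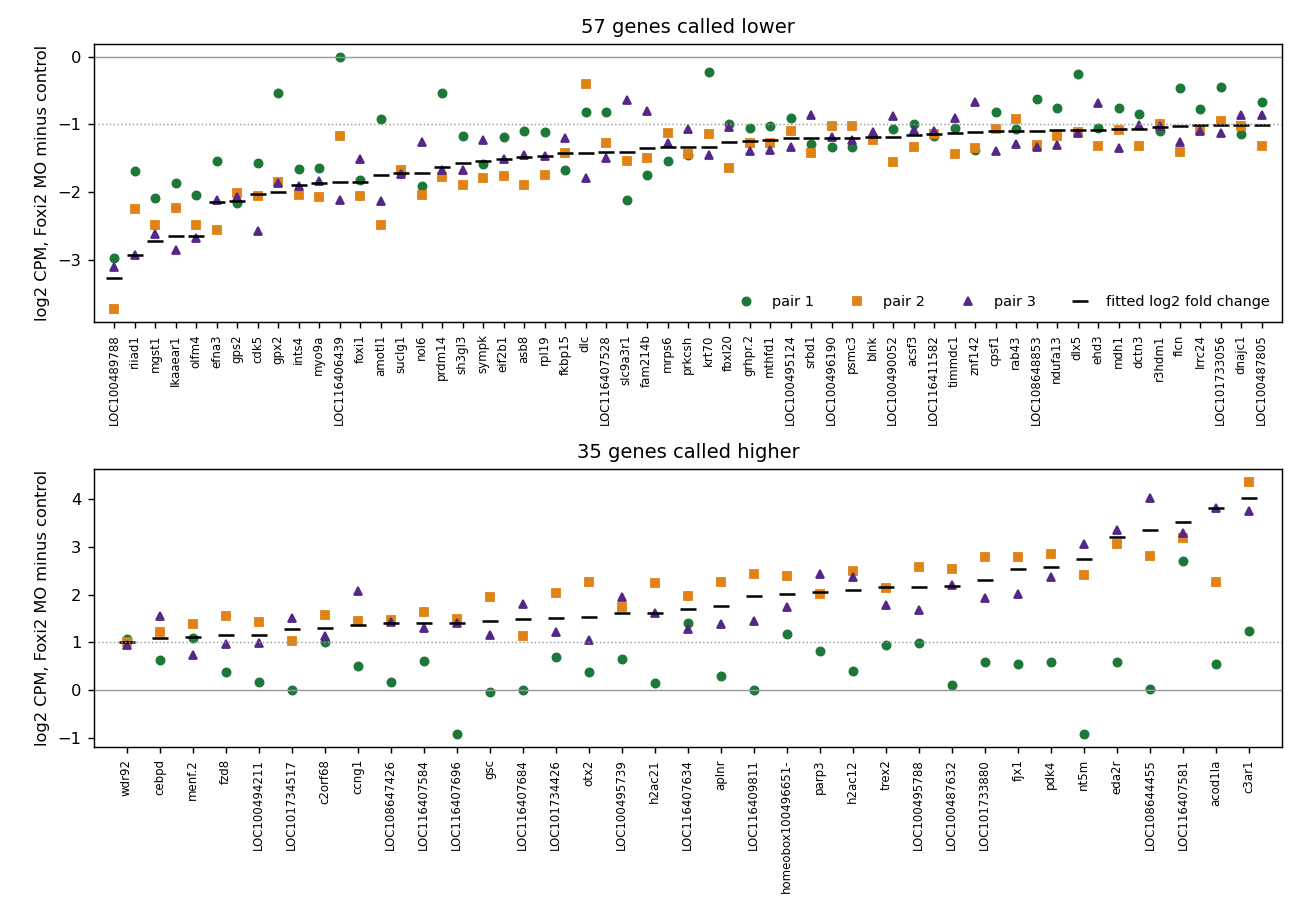
Difference in log2 CPM, Foxi2 MO minus control, in each of the 3 pairs for every called gene (57 lower, top; 35 higher, bottom), with the fitted log2 fold change as a bar and a dotted line at a 2-fold change. All pairs are below 0 or at it in the lower genes, whereas pair 1 lies near 0 for many of the higher genes.

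Among the lower genes were 4 regulators known from ectoderm or its derivatives, *foxi1* included. *dlx5* (chromosome 6, 33921606 to 33926545), a homeobox factor of the non-neural ectoderm and neural border, had 0.419, 8.92 and 16.6 CPM in Foxi2 morphants, against 0.522, 19.3 and 36.1 CPM in controls. It was barely present in replicate 1 and lower by more than 2-fold in the other pairs, with a log2 fold change of -1.08 (SE 0.14, adjusted p = 0.0132). *prdm14*, a PR-domain factor known in mouse for its part in pluripotency and germ cells, had 0.359, 0.243 and 5.61 CPM in Foxi2 morphants, against 0.580, 1.15 and 18 CPM in controls, with -1.62 as its log2 fold change (SE 0.28, adjusted p = 0.0391). Nearly all of its reads came from replicate 3. *dlc*, which encodes a Notch ligand of the Delta type, had 1.55, 1.4 and 22.7 CPM in Foxi2 morphants, against 2.84, 1.89 and 78.8 CPM in controls. Its log2 fold change was -1.42 (SE 0.24, adjusted p = 0.0382), and it rested on replicate 3 in the same way. *dlx5*, *prdm14* and *dlc* were no longer called without replicate 2, nor without replicate 3, where *prdm14* had too few counts to be tested, and DESeq2 gave *prdm14* an adjusted p of 0.0824.

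A further 5 lower genes were grouped by hand, after the calls had been seen, as epidermal and secreted effectors. The glutathione enzymes *gpx2* and *mgst1* among them are not shown to be either. *olfm4* (chromosome 8, 79187184 to 79194263), a secreted olfactomedin glycoprotein, had 0, 3.04 and 15.6 CPM in Foxi2 morphants, against 0.406, 17.4 and 99.8 CPM in controls. The morphant was below its control in every pair, although replicate 1 held only 0 counts in the morphant and 7 in the control. The differences in log2 CPM were -2.47 and -2.67 in pairs 2 and 3, with a log2 fold change of -2.64 (SE 0.15, adjusted p = 0.000942), and the call held without each replicate. *krt70* (chromosome 10, 7571389 to 7577912), a keratin of the epidermal cytoskeleton, had 0.179, 6.01 and 73.5 CPM in Foxi2 morphants, against 0.232, 13.3 and 201 CPM in controls, so that its log2 fold change was -1.33 (SE 0.12, adjusted p = 0.00391). It was lower in every pair, although replicate 1 held only 3 counts in the morphant and 4 in the control, and the call was lost without replicate 3. Reads from related keratins may be shared with it. *amotl1* (chromosome 2, 164939602 to 165021264), an angiomotin-like protein of cell junctions, had 4.96, 0.546 and 7.1 CPM in Foxi2 morphants, against 9.52, 3.64 and 31.5 CPM in controls. It had reads in every library, and its log2 fold change was -1.74 (SE 0.29, adjusted p = 0.0342), a call lost without replicate 2 and without replicate 3. *gpx2*, a glutathione peroxidase, and *mgst1*, a microsomal glutathione transferase, had log2 fold changes of -1.99 (SE 0.33) and -2.71 (SE 0.30), with adjusted p of 0.0352 and 0.00863, and neither was called without replicate 2. Without replicate 3 *mgst1* was not called and *gpx2* could not be tested, and DESeq2 gave *gpx2* an adjusted p of 0.164.

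**Figure D3:**
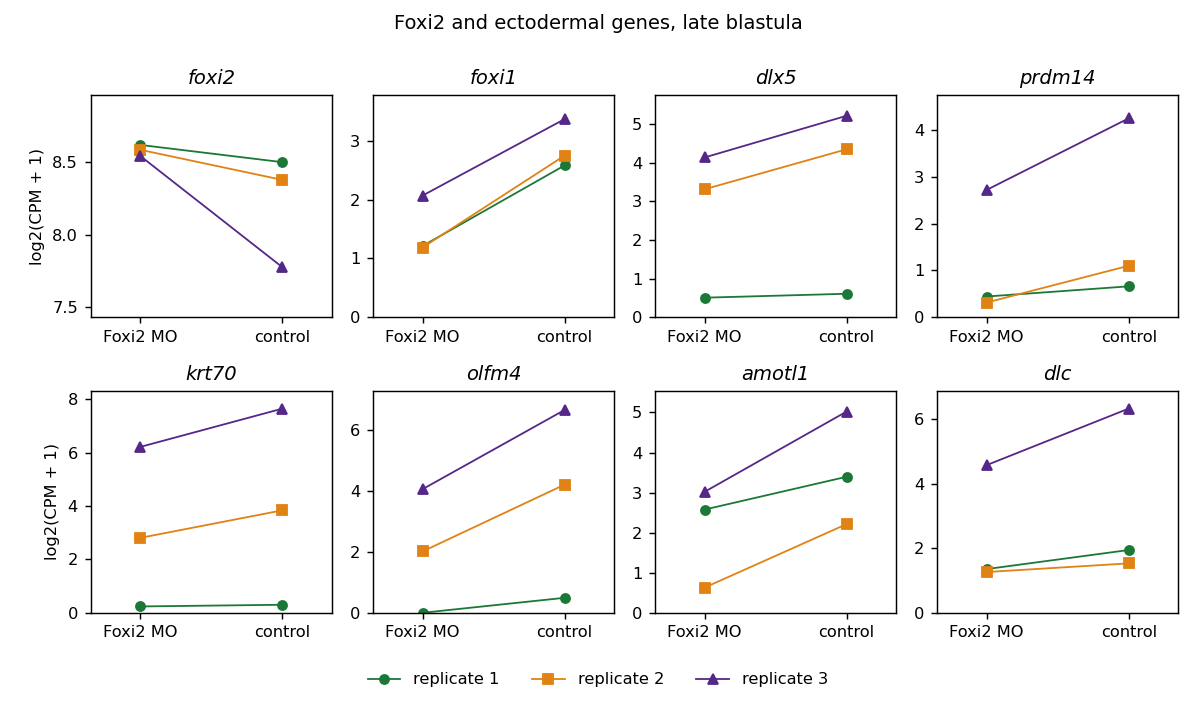
Level of *foxi2* and of 7 called ectodermal genes as log2(CPM + 1), with the Foxi2 MO libraries on the left and the controls on the right of each panel, lines joining libraries of a replicate number (axes differ between panels, and that of *foxi2* does not start at 0). *foxi2* is not lower in any morphant, and the other 7 slope upward to the control in every replicate.

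Other ectodermal genes that the study follows did not pass the test at this stage. *tfap2a*, an AP-2 factor of the non-neural ectoderm, had 0.538, 64.2 and 108 CPM in Foxi2 morphants, against 1.28, 82.7 and 242 CPM in controls (log2 fold change -0.79, SE 0.17, adjusted p = 0.0762). It lay below its control in every pair, and was called without replicate 2. *klf5*, a zinc finger factor of epithelia, had 36.1, 23.6 and 19.7 CPM in Foxi2 morphants, against 31.5, 30.4 and 66.2 CPM in controls, and differed strongly only in replicate 3 (log2 fold change -0.62, SE 0.32, adjusted p = 0.429). *kit*, a receptor tyrosine kinase, and *unc45b*, a myosin chaperone, had log2 fold changes of -1.19 (SE 0.29, adjusted p = 0.108) and -1.98 (SE 0.53, adjusted p = 0.155). *krt7* was at -0.36 (adjusted p = 0.0855), *lhx5* at -0.24 (adjusted p = 0.497) and *hes5.1* at 0.45 (adjusted p = 0.663). *dlx3*, *tp63*, *gata3* and *hgf* had reads almost only in replicate 3 and were not tested. Their counts there were 27, 71, 34 and 3 in the Foxi2 morphant, against 90, 172, 73 and 42 in the control, which is 1 library each and has no replicate check. In replicate 2 they were 2, 10, 4 and 0 in the morphant, against 0, 5, 4 and 3 in the control. By counts only *hgf* was lower in the morphant of replicate 2. *gata3*, with 4 counts in each, had 0.243 CPM in the morphant, against 0.27 CPM in the control.

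Other lower genes were already expressed in the earliest replicate. Of the 57, 33 had at least 10 CPM in the control of replicate 1, as did 8802 of the 12802 genes tested, and 27 of these 33 were already at least 2-fold lower in pair 1. They include genes of RNA processing, metabolism, membrane traffic and protein turnover that most cells use. *suclg1* (chromosome 1, 9775906 to 9796087), a subunit of succinyl-CoA ligase in the mitochondrial citrate cycle, had 10.7, 16.2 and 24.0 CPM in Foxi2 morphants, against 35.5, 51.9 and 79.9 CPM in controls. The 3 pair differences were -1.72, -1.67 and -1.73, nearly the same although the level itself differed between replicates, and the log2 fold change was -1.71 (SE 0.08, adjusted p = 0.000452). *r3hdm1*, a protein with an R3H nucleic-acid binding domain, had 82.1, 106 and 96.8 CPM in Foxi2 morphants, against 175, 210 and 196 CPM in controls, with -1.03 as its log2 fold change (SE 0.06, adjusted p = 0.000942). In both genes every morphant library was lower than every control library.

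The genes with a symbol were sorted by known function after the calls had been seen, so the group sizes are a description. RNA processing and translation held 10 genes, of which 8 were called without each replicate in turn. *ints4*, a subunit of the Integrator complex that cleaves nascent RNA, had 7.24, 7.77 and 9.87 CPM in Foxi2 morphants, against 23.1, 32.3 and 37.5 CPM in controls (log2 fold change -1.89, SE 0.11, adjusted p = 0.00103). *sympk* and *cpsf1*, both of the machinery that cleaves and polyadenylates mRNA, changed by -1.53 (SE 0.11) and -1.1 (SE 0.11) on the log2 scale. *nol6*, a nucleolar protein of ribosome assembly, had 14.1, 27.9 and 74.8 CPM in Foxi2 morphants, against 53, 115 and 178 CPM in controls. *gps2*, a subunit of the NCoR corepressor complex, had 1.79, 2.61 and 3.2 CPM in Foxi2 morphants, against 8.47, 10.8 and 13.8 CPM in controls (log2 fold change -2.13, SE 0.155, adjusted p = 0.00218). It was placed in this group by hand, although a corepressor subunit is not one of RNA processing or translation. *eif2b1*, *srbd1* and *mrps6* were also in this group, and so was *rpl19*, a protein of the large ribosomal subunit, at 8.31, 10.6 and 19.3 CPM in Foxi2 morphants against 18, 35.8 and 53.3 CPM in controls. *rpl19* was the only one called of 74 ribosomal protein genes tested, whose median log2 fold change was 0.17.

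Mitochondria and metabolism held 7 genes with log2 fold changes from -1.71 to -1.06, of which 3 were called without each replicate in turn. Beside *suclg1* these were *mdh1* (cytosolic malate dehydrogenase), *mthfd1* (folate metabolism), *grhpr.2* (glyoxylate reductase), *ndufa13* and *timmdc1* (a subunit and an assembly factor of respiratory complex I) and *acsf3* (an acyl-CoA synthetase). *mthfd1* had 25.5, 61.8 and 71.3 CPM in Foxi2 morphants, against 52.0, 149 and 185 CPM in controls. Cytoskeleton and membrane traffic held 7 more, from -1.86 to -1.06, with *myo9a*, *sh3gl3*, *fkbp15*, *slc9a3r1*, *rab43*, *ehd3* and *dctn3*. Here 3 were called without each replicate in turn, and *sh3gl3* and *ehd3* lost the call whichever replicate was left out. *myo9a*, an unconventional myosin motor, had 14.5, 13.4 and 18.6 CPM in Foxi2 morphants, against 45.6, 56.6 and 66.5 CPM in controls (log2 fold change -1.86, SE 0.10, adjusted p = 0.000942). Protein folding and turnover held 5 genes, *prkcsh*, *dnajc1*, *psmc3*, *asb8* and *fbxl20*, of which 3 were called without each replicate in turn. *prkcsh*, the beta subunit of glucosidase II, had 38.5, 22.8 and 21 CPM in Foxi2 morphants, against 106, 61.8 and 44.0 CPM in controls, and was lower in every pair while its level fell with stage in both groups.

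Signalling genes numbered 4, of which 2 were called without each replicate in turn. *cdk5* (chromosome 6, 1354866 to 1369888), a cyclin-dependent kinase best known from neurons, had 15.6, 7.59 and 5.75 CPM in Foxi2 morphants, against 46.6, 32.1 and 34.8 CPM in controls, with no overlap and a log2 fold change of -2.03 (SE 0.18, adjusted p = 0.00391). *efna3*, an ephrin ligand, had 1.91, 1.58 and 1.63 CPM in Foxi2 morphants, against 5.8, 9.9 and 7.49 CPM in controls. *flcn*, a regulator of nutrient signalling, and *blnk*, an adaptor known from B cells, had log2 fold changes of -1.03 (SE 0.18, adjusted p = 0.0406) and -1.18 (SE 0.09, adjusted p = 0.00257). Without replicate 2 neither *efna3* nor *flcn* was called, and *flcn* was not called without replicate 3. A gene without a symbol, LOC100489788 on chromosome 6 (115690012 to 115713272), had the largest fall of the 57, with 34.1, 12.5 and 11.4 CPM in Foxi2 morphants, against 267, 166 and 98.6 CPM in controls (log2 fold change -3.25, SE 0.14, adjusted p = 0.000452). *riiad1* stood at 3, 3 and 2 counts in Foxi2 morphants, against 15, 20 and 24 counts in controls. The ratio of its summed counts, morphant over control and scaled for depth, was 0.128 (95% exact interval 0.0527 to 0.268, counting error only). Its edgeR call was lost without replicate 2 (adjusted p = 0.201) and without replicate 3 (adjusted p = 0.173). DESeq2 gave *riiad1* no adjusted p.

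The higher genes were led by *c3ar1* (chromosome 7, 9129400 to 9134658), the receptor for complement fragment C3a. It had 0.179, 83.5 and 168 CPM in Foxi2 morphants, against 0, 3.91 and 12.3 CPM in controls. The transcript was all but absent in replicate 1 and differed widely in the other pairs, and the log2 fold change of 4.03 (SE 0.16, adjusted p = 0.000429) was called without each replicate. *eda2r* (chromosome 8, 41937785 to 41947274), a receptor of the TNF receptor family, had 0.239, 12.7 and 21.7 CPM in Foxi2 morphants, against 0.116, 1.41 and 2.01 CPM in controls (log2 fold change 3.22, SE 0.255, adjusted p = 0.00257). *pdk4*, a kinase that restrains pyruvate dehydrogenase, had 0.239, 26.3 and 52.9 CPM in Foxi2 morphants, against 0.116, 3.50 and 10.1 CPM in controls (log2 fold change 2.58, SE 0.18, adjusted p = 0.00208). *acod1la*, named after aconitate decarboxylase, had 0.0598, 1.15 and 16.6 CPM in Foxi2 morphants, against 0, 0.135 and 1.05 CPM in controls. Most of its reads came from replicate 3, without which it could not be tested. *c3ar1* and *pdk4* differed more in pair 2, with its more advanced morphant (4.37 and 2.86), than in pair 3 (3.76 and 2.38). *eda2r* and *acod1la* differed more in pair 3. The part of the stage offset in these changes was not tested.

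Regulators of the dorsal organizer and the head axis formed a second set of 5. *gsc* (chromosome 8, 88446481 to 88449211), the goosecoid homeobox gene of the organizer, had 1.02, 109 and 172 CPM in Foxi2 morphants, against 1.04, 28.1 and 77.2 CPM in controls. It did not differ in replicate 1, and its log2 fold change was 1.46 (SE 0.21, adjusted p = 0.0230), whereas DESeq2 gave an adjusted p of 0.427. *otx2* (chromosome 8, 104113601 to 104120481), a homeobox gene of the anterior embryo, had 0.419, 44.9 and 179 CPM in Foxi2 morphants, against 0.290, 9.16 and 86.6 CPM in controls (log2 fold change 1.53, SE 0.25, adjusted p = 0.0335). *aplnr*, the apelin receptor of early mesoderm, had 0.598, 100 and 155 CPM in Foxi2 morphants, against 0.464, 20.6 and 59.6 CPM in controls (log2 fold change 1.76, SE 0.21, adjusted p = 0.0108). *fzd8*, a Wnt receptor, had a log2 fold change of 1.15 (SE 0.17, adjusted p = 0.0230). In all 4 the difference was larger in pair 2, where the morphant library lay further along the stage axis, than in pair 3, and *gsc* and *fzd8* were not called without replicate 2 or without replicate 3. DESeq2 called neither *otx2* (adjusted p = 0.151) nor *aplnr* (adjusted p = 0.0985). The fifth was the homeobox gene that the annotation calls homeobox100496651-provisional, at 0.299, 11.5 and 39.1 CPM in Foxi2 morphants, against 0.0580, 2.09 and 11.6 CPM in controls. It was placed in this set by hand and is on none of the lists, so an organizer or axis role is not shown for it.

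**Figure D4:**
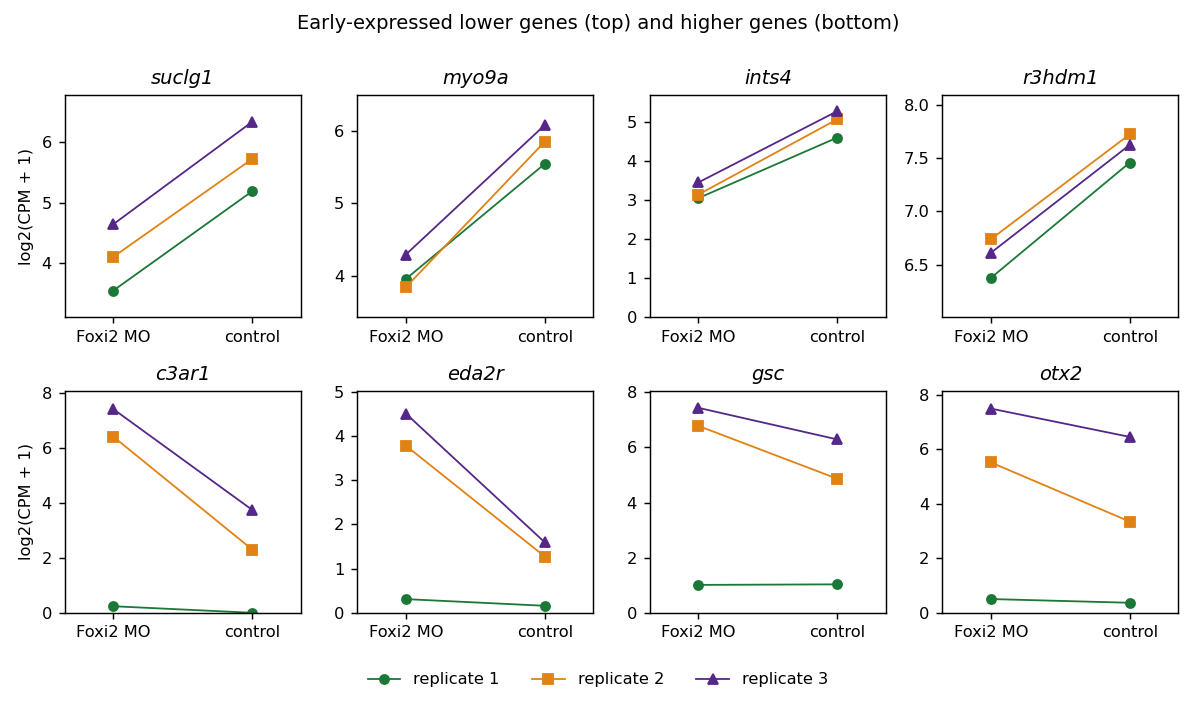
Level as log2(CPM + 1) of 4 lower genes already expressed in replicate 1 (top) and of 4 higher genes (bottom), Foxi2 MO left and control right, lines joining libraries of a replicate number (axes differ between panels, and those of *suclg1*, *myo9a* and *r3hdm1* do not start at 0). The 4 lower genes have near-parallel lines in all 3 replicates, and the 4 higher genes are close to 0 CPM in replicate 1 or do not differ there.

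A further 5 of the higher genes are known from the response to damage or stress. *ccng1*, cyclin G1, which p53 induces in mammals, had 41.5, 98.8 and 179 CPM in Foxi2 morphants, against 29.2, 36.0 and 42.3 CPM in controls (log2 fold change 1.37, SE 0.25, adjusted p = 0.0487). It was above control in every pair. *parp3*, a poly(ADP-ribose) polymerase, and *trex2*, a DNA exonuclease, had log2 fold changes of 2.06 (SE 0.26, adjusted p = 0.0132) and 2.16 (SE 0.40, adjusted p = 0.0489), and *cebpd*, a stress-inducible C/EBP factor, one of 1.1 (SE 0.17, adjusted p = 0.0275). None of these 4 was called without replicate 2 or without replicate 3, where *trex2* could not be tested. DESeq2 gave *ccng1* and *trex2* adjusted p-values of 0.0737 and 0.195. *eda2r* is the fifth. Of the 21 tested genes on a list of p53 responses, *ccng1* was the only one called, and the list's median was 0.12 on the log2 scale. It was 0.02, 0.19 and 0.12 in pairs 1, 2 and 3. Of the 21, 17 lay above 0, against 6408 of all 12802 genes tested. *eda2r* is not on that list.

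Histone genes and unnamed neighbours made up much of the rest. *h2ac12* had 2.81, 32.4 and 47.5 CPM in Foxi2 morphants, against 2.09, 5.59 and 9.11 CPM in controls, and *h2ac21* had 3.35, 47.1 and 52.1 CPM in Foxi2 morphants, against 3.02, 9.84 and 16.8 CPM in controls. Their log2 fold changes were 2.11 (SE 0.31, adjusted p = 0.0231) and 1.62 (SE 0.30, adjusted p = 0.0460), from pairs 2 and 3, and neither was called without replicate 2 or without replicate 3. DESeq2 gave *h2ac21* an adjusted p of 0.289. Genes known only by an identifier numbered 15 of the 35 higher and 10 of the 57 lower genes, against 13.5% of all genes tested. On chromosome 3, 6 higher genes lay between 135382242 and 135763950, *h2ac12* and 5 unnamed ones, and on chromosome 9, 4 lay between 4562829 and 5616149, *h2ac21* and 3 unnamed ones. Histones of this type and unnamed neighbours can be near-identical copies, so how reads were shared among them is uncertain. *nt5m*, *fjx1*, *menf.2*, *c2orf68* and *wdr92* completed the higher genes with a symbol. *wdr92* changed evenly, by 1.08, 1.01 and 0.94 in the 3 pairs, close to the 2-fold threshold, and was not called without replicate 1 or without replicate 2.

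Lists of pathways and germ layers are described by their counts and medians, beside 0.445% lower, 0.273% higher and a median of 0.00026 over all genes. Of 20 tested transcription factors of the non-neural ectoderm, *dlx5* and *foxi1* were called lower and none higher, with a median log2 fold change of -0.22. *krt70* and *amotl1* were called lower among 29 epidermal effectors, whose median was 0.04. Among 32 neural ectoderm genes *prdm14* was called lower and *otx2* higher, and the median was 0.15. Of 7 genes of placodes and ionocytes *foxi1* was called, with a median of -0.09. No gene was called among 25 of the BMP pathway and ventral side (median -0.16), where 21 lay below 0. The median was -0.103, -0.433 and -0.095 in pairs 1, 2 and 3, furthest below 0 in pair 2 with its more advanced morphant. Of the 25, *bmp4*, the ventral ligand, and *ventx1.1*, its homeobox target, had log2 fold changes of -0.77 and -0.91 with adjusted p of 0.0118 and 0.0357, short of 2-fold.

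The medians of endoderm and organizer genes lay above 0. Of 19 organizer genes 2 were called higher, *gsc* and *otx2*, 17 lay above 0 and the median was 0.64. It was -0.01, 0.92 and 0.54 in pairs 1, 2 and 3. Of 20 endoderm genes *otx2* was called and 19 lay above 0, with a median of 0.58 (0.01, 1.08 and 0.47 in the pairs). *sox17a*, a definitive endoderm factor, had 3.05, 110 and 217 CPM in Foxi2 morphants, against 2.61, 47.3 and 152 CPM in controls, but its adjusted p was 0.0683. Of 29 mesoderm genes *aplnr* was called and the median was 0.24. In these 3 lists pair 2, with the more advanced morphant, had the largest median. *nog* and *foxa4*, which are organizer genes, had adjusted p of 0.0382 and 0.0487 at changes under 2-fold.

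The Nodal pathway (18 tested, median 0.03), the FGF pathway (24, median 0.23), maternal regulators (32, median 0.10), germ plasm (19, median 0.06), innate immune genes (17, median -0.02) and ciliogenesis (14, median -0.01) had 0 genes called by edgeR. Notch and hes genes had 1 of 25 (*dlc*, lower), growth factors and receptors 1 of 27 (*efna3*, lower) and the Wnt pathway 1 of 35 (*fzd8*, higher). Of the germ layer markers that the study plots for early gastrula nuclei, the 11 tested ectoderm markers summed to 1279, 1669 and 2283 CPM in Foxi2 morphants, against 1222, 1479 and 2589 CPM in controls, and 1 was called lower (*krt70*). The 9 tested endoderm markers summed to 15.4, 512 and 1433 CPM in Foxi2 morphants, against 21.5, 323 and 1067 CPM in controls, and the 7 mesoderm markers to 445, 498 and 832 CPM in Foxi2 morphants, against 442, 446 and 833 CPM in controls. None of the endoderm or mesoderm markers was called. Of 30 genes of muscle, blood and neurons, which have not formed at this stage, 7 had enough counts to be tested, with sums of 3.71 to 60.3 CPM in Foxi2 morphants and 4.24 to 71.3 CPM in controls.

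The study lists zygotic genes nearest to Foxi2 peaks that are shared with ectodermal Ep300 (a coactivator acetyltransferase). Of such genes in its peak classes IV to VII, bound at early gastrula, 308 were tested, and 8 were called lower (2.60%, against 0.445% of all genes) and 3 higher (0.974%, against 0.273%). The 8 were *olfm4*, *gpx2*, *foxi1*, *prdm14*, *dlc*, *krt70*, *dlx5* and LOC100495124. The median log2 fold change over the 308 was 0.01. None of the 33 lower genes with at least 10 CPM in the control of replicate 1 was on this list, and all 8 came from the other 24, which is partly fixed by the list since it holds zygotic genes only. Of 38 tested genes of classes I to III, 1 was called higher and none lower. Since the lists hold zygotic genes, all genes tested are not a like set beside them. Of the 477 tested genes that rose at least 4-fold by early gastrula in Sox3 controls, 8 were called lower and 9 higher. Whether binding adds to what zygotic genes show in general was not tested.

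At early gastrula the fitted change had the same direction for every called gene, although single pairs could differ. The 57 lower genes had a median log2 fold change of -1.19 there, all 57 were below 0 and 32 were called lower, in a comparison that called 0.613% of its genes lower and 0.855% higher. The 32 included *olfm4* (-2.32, adjusted p = 0.000176), *amotl1* (-2.15, adjusted p = 0.00146), *prdm14* (-1.49, adjusted p = 0.0100), *cdk5* (-2.67, adjusted p = 0.00125), *myo9a* (-2.13, adjusted p = 0.00109) and *suclg1* (-1.65, adjusted p = 0.00125). *foxi1*, *dlx5* and *krt70* were at -0.72, -0.73 and -0.89 with adjusted p of 0.0393, 0.0125 and 0.0142, short of 2-fold. Of the study's ectodermal genes that missed the test at late blastula, *klf5*, *kit*, *unc45b* and *hes5.1* were called lower at early gastrula, at -1.28, -1.73, -1.84 and -2.74. *dlx3*, *tp63*, *gata3* and *hgf*, not tested at late blastula, were below control in both early gastrula pairs. *dlx3* had 4.62 and 0.956 CPM, against 17.9 and 1.7 CPM in controls. *gata3* had 6.09 and 1.25 CPM, against 16 and 1.48 CPM in controls. *foxi2* itself was at 0.93 there (adjusted p = 0.0175). The 35 higher genes had a median of 1.1, all 35 were above 0 and 14 were called higher, namely *h2ac12*, *h2ac21* and 12 unnamed genes. *c3ar1* was at 1.62 (adjusted p = 0.182), *gsc* at 0.64 (adjusted p = 0.0512) and *otx2* at 0.82 (adjusted p = 0.0546). *gsc* and *otx2* were above control in both pairs. In replicates 1 and 2 *c3ar1* had 145 and 283 CPM in Foxi2 morphants, against 14.3 and 235 CPM in controls. *eda2r* had 13.5 and 35.8 CPM, against 1.52 and 32.3 CPM in controls, so both differed widely in pair 1 only. *pdk4*, with 43.1 and 110 CPM against 15.9 and 113 CPM in controls, was not above its control in pair 2. A test of the difference between the stages called 0% of 13987 genes in either direction with edgeR, and DESeq2 called 0 as well. With edgeR 460 had an unadjusted p under 0.05, fewer than chance alone would give. The stages overlapped in the level of some genes that rise with time. *krt7* and *krt70* had 706 and 201 CPM in the late blastula control of replicate 3. In the 2 early gastrula controls *krt7* had 1144 and 309 CPM and *krt70* had 378 and 93.4 CPM. *c3ar1*, at 12.3 CPM against 14.3 and 235 CPM, did not overlap. The part of this in the stage test was not tested. The early gastrula libraries are other libraries of the same MO, so they repeat the measurement with the same reagent.

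The same genes were followed in Sox3 morphants of the same stage, whose controls differed in level from the Foxi2 controls. *otx2*, *gsc* and *krt7* had 1.81 and 1.92, 15.7 and 10.8, and 40.6 and 26.2 CPM in Sox3 controls. In Foxi2 controls of replicates 2 and 3 they had 9.16 and 86.6, 28.1 and 77.2, and 91.2 and 706 CPM. *c3ar1*, with 1.77 and 55.3 CPM against 3.91 and 12.3 CPM, was higher in the second Sox3 control. The part of these levels in the comparison of the knockdowns was not tested. Sox3 is a SoxB1 factor of the early ectoderm, and its knockdown lowered 1.01% of the genes tested there and raised 0.309%. Of 56 lower genes that could be tested there, 7 were called lower, the median was -0.12 and none was called higher. The 7 were *olfm4* (-1.73), *foxi1* (-2.28), *efna3* (-1.50), *grhpr.2* (-2.12), *psmc3* (-1.17), *mdh1* (-1.0) and LOC108648853 (-1.48). Of 29 higher genes 5 were called higher, *h2ac12* and 4 unnamed genes, and 2 were called lower, homeobox100496651-provisional (-1.48) and LOC116407684 (-2.28).

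The difference between the knockdowns was tested directly. It was called in 0.265% of 14316 genes in the direction of a lower value in Foxi2 morphants and in 0.873% in the other direction. The 57 and 35 genes had been chosen by their change in the same Foxi2 libraries. A difference in that direction was thus favoured among them in advance, and their counts here are a description. Of the 57 lower genes, 26 passed, and 18 of these were among the 33 present early. The group of RNA processing and translation, sorted by hand after the calls, had 9 of its 10 genes among those that passed. One was *ints4*, with a difference of -2.03 (adjusted p = 0.000426). The corepressor subunit *gps2*, also counted in this group, had -2.07 (adjusted p = 0.00161). Of the ectodermal regulators only *dlc* passed, at -2.10 (adjusted p = 0.0445). It had only 1.48 and 1.13 CPM in Sox3 morphants, against 0.781 and 0.791 CPM in their controls. Its fall in Foxi2 morphants rested on replicate 3. For *olfm4*, *foxi1*, *dlx5* and *krt70* the differences were -0.91, 0.46, -0.25 and -1.12 with adjusted p of 0.123, 0.770, 0.767 and 0.0683. Of the 35 higher genes 13 passed, with *c3ar1* at 3.57 (adjusted p = 0.00055), *eda2r* at 3.11 (adjusted p = 0.00142), *aplnr* at 2.25 (adjusted p = 0.00305) and *gsc* at 1.93 (adjusted p = 0.0232).

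**Figure D5:**
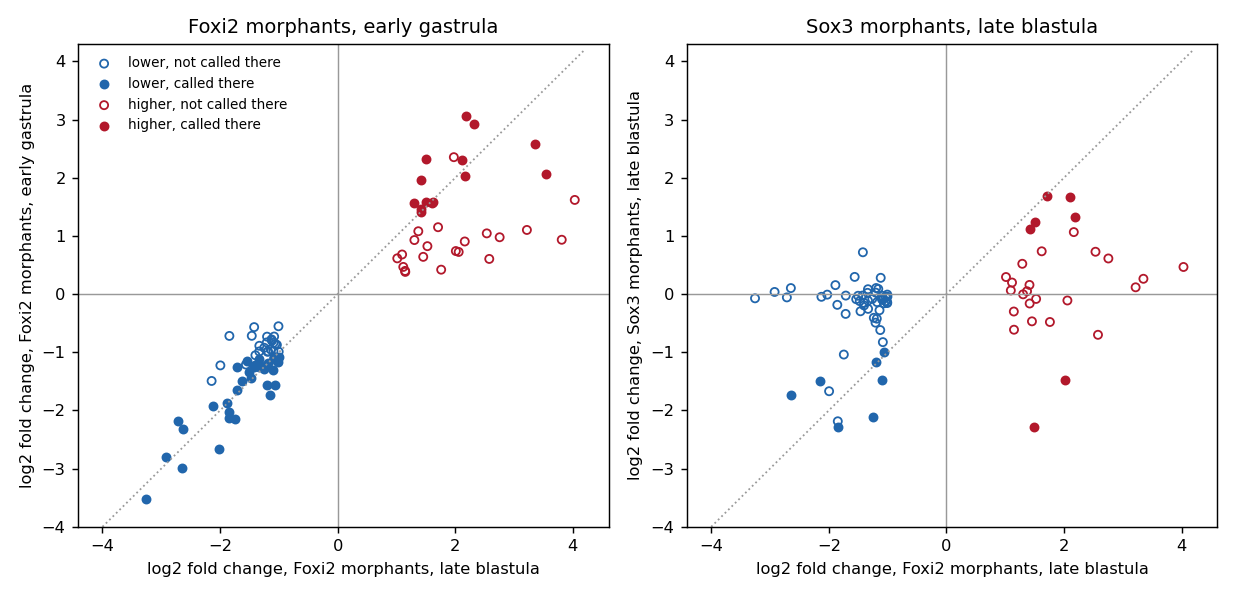
Log2 fold changes of the called genes in Foxi2 morphants at late blastula (x axis) against those in Foxi2 morphants at early gastrula (left) and in Sox3 morphants at late blastula (right), with filled points for genes called in the comparison on the y axis and a dotted line at equal values. At early gastrula all 57 lower genes lie below 0 and all 35 higher genes above it, while in Sox3 morphants most points lie near 0, with medians of -0.12 and 0.16.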

How the data were processed

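For whole-embryo poly(A) libraries the authors deposited RSEM expected counts against genome V10.0 of *X. tropicalis*, 1 table per comparison with 28850 genes. Per the study's methods RSEM ran with STAR, while the submitters' processing notes name RSEM 1.2.12 and Bowtie2 2.2.7. The methods call the expected counts normalized, but library totals differ, so they were taken as unscaled. RSEM splits reads among near-identical genes. No column of per-sample values was left unused, and 26531 gene names matched RefSeq symbols (UCB_Xtro_10.0), which gave coordinates.

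Expected counts were rounded and analysed in R 4.3.3 with edgeR 4.0.16 (filterByExpr by group, TMM, glmQLFit, replicate number as block, Benjamini-Hochberg adjustment). A call needed an adjusted p under 0.05 together with a log2 fold change of 1 or more in size. Pair differences used log2 CPM with a prior count of 2. An SE is the absolute log2 fold change over the square root of F. The depth gave a floor of 3 counts, or 0.174 to 0.241 CPM. Interactions were fitted with the block within each factor or stage. The fits were tested on simulated data. DESeq2 1.42.0 and the other alternatives are described with their effects in the closing section.

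The labels number morphants and controls alike. Deviations from the group means correlated at 0.942, 0.800 and 0.926 for the same numbers, so numbers were read as pairs. Libraries of one group gave a chi-square per gene of 59.9 to 180 against each other, far above the sampling noise, so none is a copy of another.

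Genes named are *foxi2* and its family, the 15 called genes per direction with the largest change and the 15 with the smallest p (all pairs in the direction of the call), called genes of the lists, genes the study follows, and others of each role group, which were chosen after their values were seen. The members, lists and tests were chosen with earlier results of these data known. The MO sequence and other sequences are not shown here.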

Additional observations from a re-analysis of the deposited data

Results flagged for a closer look

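The change in Foxi2 morphants differed from that in Sox3 morphants of the same stage, by the interaction test with replicate blocks, in 38 genes with a lower value in Foxi2 morphants and 125 with a higher one. The values that follow are differences of log2 fold changes, Foxi2 minus Sox3. Foxi2 and Sox3 controls also differed in the level of genes such as *otx2* and *krt7*. The part of this in the differences was not tested. Among the genes lower in Foxi2 morphants, the difference was -3.17 for LOC100489788, -2.96 for *riiad1*, -2.75 for *lkaaear1*, -2.65 for *mgst1*, -2.10 for *dlc*, -2.07 for *gps2*, -2.03 for *ints4*, -2.0 for *cdk5*, -1.68 for *nol6*, -1.66 for *myo9a*, -1.44 for *sympk*, -1.37 for *suclg1* and -1.21 for *prkcsh*. The genes higher in Foxi2 morphants had differences of 3.57 for *c3ar1*, 3.50 for homeobox100496651-provisional, 3.3 for *pdk4*, 3.11 for *eda2r*, 3.09 for LOC108644455, 2.25 for *aplnr*, 2.18 for *parp3*, 1.93 for *gsc*, 1.77 for LOC100494211, 1.45 for *fzd8* and 1.26 for LOC108647426. *lhx5*, a LIM homeobox gene, had a difference of 1.77, with log2 fold changes of -0.24 in Foxi2 morphants and -2.0 in Sox3 morphants. *trex2* had a difference of 4.78, but it stood at only 0.0706 and 0.0389 CPM in Sox3 morphants, against 0.288 and 0.452 CPM in their controls, too few counts for a test of the Sox3 change itself. *dlc* was low there as well, at 1.48 and 1.13 CPM in Sox3 morphants, against 0.781 and 0.791 CPM in their controls.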

How the results depend on the processing

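In the fit with no replicate block 0 genes were called lower and 0 higher (smallest adjusted p of 1.00 from edgeR, with 86 lower and 59 higher at an unadjusted p under 0.05), and 0 genes differed between the knockdowns, against 163 in the paired fit. The 86 and 59 are together fewer than chance alone would give among the genes tested. An adjusted p under 0.05 with no fold threshold, in the paired fit, gave 156 lower and 113 higher genes. With every gene of at least 1 count tested, 95 were higher, 324 differed between Foxi2 and Sox3 knockdown and 6 between stages. Leaving out a replicate pair gave 26 to 72 lower genes and 10 to 127 higher genes, the lowest without replicate 2 and the highest without replicate 1, and 96 to 236 genes that differed between the knockdowns. DESeq2 with the block called 48 lower and 27 higher genes, of which 47 and 20 were also called by edgeR. The number of lower genes stayed within 1.5 times for library size only (57), the fit on all genes (78) and a robust fit (56). Of 479 alternatives for 61 named genes, 359 kept the call or its absence, 118 lost it, 52 of them with no block, 2 gained it and none turned the direction. Replicate 1 limits what can be said of zygotic genes, since few had reads there. Genes with reads almost only in 1 pair, such as *dlx3* and *gata3*, were not tested.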

Other observations

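Histone genes were looked at by symbol after the calls for *h2ac12* and *h2ac21* had been seen. Of 25 tested, 19 had a log2 fold change above 0. The 2 called higher, against 0.273% of all genes tested, were the 2 that led to this look. The larger values were among those with low levels in controls, for example *h1-6* at 1.54 (adjusted p = 0.0746), *h2bc11* at 1.59 (adjusted p = 0.111) and *h4c3* at 1.29 (adjusted p = 0.268). Other low ones did not rise, such as *h2ax* at -0.23. The abundant *h2az1* and *h3-3b* were at -0.04 and 0.0027. Since poly(A) RNA was sequenced, a low level here need not mean low expression. Whether the histone transcripts were captured alike was not tested. *h2bc11* had 0.777, 14.4 and 15.6 CPM in Foxi2 morphants, against 1.22, 3.3 and 4.27 CPM in controls. At early gastrula 9 of the 25 were called higher in Foxi2 morphants, against 0.855% of all genes tested there. Besides *h2ac12* and *h2ac21*, by which the set was chosen, these were *h1-6*, *h2bc11*, *h2ac14*, *h2aj*, *h4c3*, *h3c14* and *h4c1*. In Sox3 morphants at late blastula *h2ac12* was called higher, at 1.67 (adjusted p = 8.96e-05), and *h2ac21* was at 0.74 (adjusted p = 0.200).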
